A study of Dendrobium officinale with 6 samples.

Results

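The nitrogen uptake and assimilation genes described here were 277 of the 157901 unigenes (assembled transcripts) of Dendrobium officinale. A unigene belonged to the group when the first KEGG ortholog in its annotation was one of 9. These were the high-affinity nitrate transporters NRT2 (K02575, 3 unigenes), the nitrate and peptide transporter family NRT1/PTR (K14638, 172), the ammonium transporters AMT (K03320, 7), nitrate reductase NR (K10534, 15), nitrite reductase NiR (K00366, 7), glutamine synthetase GS (K01915, 25), NADH-dependent glutamate synthase NADH-GOGAT (K00264, 19), ferredoxin-dependent glutamate synthase Fd-GOGAT (K00284, 15) and glutamine-hydrolysing asparagine synthetase ASN (K01953, 14). The mRNA of protocorm-like bodies (PLBs), purified from total RNA with oligo(dT) beads, was compared with that of leaves. There were 3 libraries per tissue (PLB replicates A13, A14 and A15, and leaf replicates A10, A11 and A12), which the labels call biological replicates. The PLBs came from seed explants. Their propagation medium was 1/2 MS with α-NAA at 0.5 mg per litre, 6-BA at 1.0 mg per litre, 2,4-D at 1.5 to 2.0 mg per litre and potato juice at 100 g per litre. They were kept at 70% relative humidity and 1600 lx, in 16 h of light and 8 h of dark, for 60 days. The leaves came from the original plant, and the paper's plants were grown in a greenhouse. Tissue, developmental stage and growth condition therefore cannot be told apart in any difference given here.

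Plants take up nitrate through transporters of the NRT1/PTR and NRT2 families and ammonium through AMT proteins. Nitrate is reduced to nitrite by nitrate reductase in the cytosol and then to ammonium by nitrite reductase in the plastid. Glutamine synthetase joins ammonium to glutamate, glutamate synthase turns glutamine and 2-oxoglutarate into glutamate, and asparagine synthetase moves the amide nitrogen of glutamine to aspartate, giving asparagine for transport and storage. In leaves of well-studied plants Fd-GOGAT and the plastid form of GS reassimilate the ammonium that photorespiration releases, whereas NADH-GOGAT and cytosolic GS are better known from roots and other tissues without photosynthesis.

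Libraries held between 17602153 and 18408442 expected counts, and the 277 unigenes took 0.344% to 0.355% of them in PLBs against 0.473% to 0.498% in leaves. The labels of the tissues went with their markers. Light-harvesting proteins summed to 3005, 2773 and 1027 TPM in PLBs against 20136, 24086 and 19806 TPM in leaves, with PLB replicate 3 the lowest, and MCM proteins of DNA replication to 230 to 262.1 TPM in PLBs against 61.2 to 66.8 TPM in leaves. In bulk RNA, fewer cells of a type and less RNA per cell cannot be told apart. The best hits of the members in the NR protein database were all from plants, 228 of them from Dendrobium.

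The ortholog labels held less well than the tissue labels. The NR description named the protein of the ortholog for 184 of the 277 unigenes, and 93 had another description. Of the counts of NR (the enzyme), 87.5% in PLBs and 95.5% in leaves lay on 10 unigenes described as cytochrome b5. Of the counts of ASN, 12.3% in PLBs and 91.1% in leaves lay on 5 unigenes described as stem-specific protein TSJT1. The unigene CL10599.Contig1_All, described as an uncharacterized protein, took 52.0% of the NiR counts in PLBs and 88.3% in leaves, and 5 unigenes described as fluG took 37.4% of the GS counts in PLBs and 4.99% in leaves. Of the NRT1/PTR counts, 59.8% in PLBs and 37.8% in leaves lay on 59 other unigenes, led by CL3448.Contig1_All, which SwissProt names GBF-interacting protein. Sums over an ortholog are therefore given beside sums over the unigenes that carry the protein's name, a split made after the annotation had been seen.

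Summed by ortholog, as the rule asks, 3 of the 9 rose in PLBs and 6 fell, when 75.8% of all 4103 orthologs tested were called at an adjusted p under 0.05 (37.2% higher and 38.6% lower). Fold changes are log2 of PLB over leaf. NRT2 rose by 2.18 ± 0.36 (SE, edgeR adjusted p = 0.00076), NADH-GOGAT by 1.16 ± 0.14 (0.00012) and NRT1/PTR by 0.25 ± 0.085 (0.028), the last with an adjusted p of 0.087 to 0.10 without any 1 of the leaf libraries. ASN fell by 2.79 ± 0.11 (5.8e-07), NiR by 2.05 ± 0.24 (0.00012), Fd-GOGAT by 1.99 ± 0.11 (2.0e-06), GS by 1.18 ± 0.098 (1.7e-05), AMT by 0.81 ± 0.087 (6.8e-05) and NR by 0.70 ± 0.084 (0.00013).

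Counted over the named unigenes alone, NRT2, NADH-GOGAT and ASN rose, NRT1/PTR, AMT, GS and Fd-GOGAT fell, and NR and NiR did not pass the test. The share called, 7 of 9, stood beside 75.7% over all rows of that fit (37.1% higher and 38.6% lower), so the number of calls is close to the background. ASN thus changed in opposite directions by rule and by name. NRT1/PTR did so too, but neither of its calls held under every alternative. Asparagine synthetase proper rose by 0.51 ± 0.082 (edgeR adjusted p = 0.00067), while the 5 TSJT1-like members fell by 5.68 ± 0.30 (1.9e-06), a fall that was far smaller when the contigs of their clusters outside the ortholog were counted too (given with asparagine synthetase). The named NRT1/PTR unigenes fell by 0.38 ± 0.076 (0.0021), a call that ended when counts were scaled by library size alone (log2 fold change -0.13, adjusted p = 0.13), and the others rose by 0.91 ± 0.094 (5.4e-05).

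**Figure D1:**
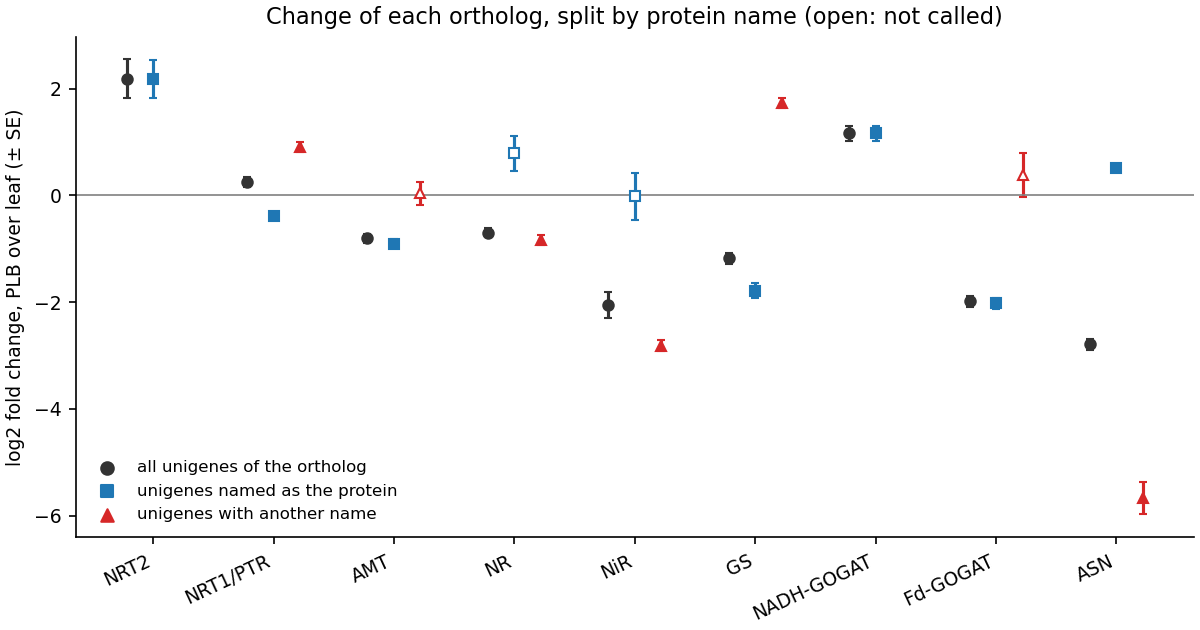
Log2 fold change of PLB over leaf (± SE, edgeR, 3 libraries per tissue) for each of the 9 orthologs. Circles are all unigenes of the ortholog, squares the unigenes named as the protein and triangles the others, and open symbols did not pass an adjusted p under 0.05. ASN lies at -2.79 over all unigenes and at 0.51 over the named ones.

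Ranked per length, in TPM summed over named unigenes, the NRT1/PTR family (667 ± 25.2 TPM in PLBs, SD, n = 3) and GS (467 ± 83.8) stood highest in PLBs, followed by ASN (138 ± 5.34), Fd-GOGAT (53.9 ± 5.69), AMT (50.2 ± 3.79), NADH-GOGAT (30.6 ± 5.94), NR (13.9 ± 7.04), NiR (7.05 ± 5.40) and NRT2 (6.85 ± 1.77). In leaves GS (1058 ± 52.3 TPM) stood above NRT1/PTR (659 ± 9.26), Fd-GOGAT (231 ± 6.79), ASN (73.2 ± 3.67), AMT (72.1 ± 3.20), NADH-GOGAT (10.8 ± 1.16), NR (7.28 ± 1.47), NiR (5.88 ± 0.76) and NRT2 (1.10 ± 0.38). Neighbours whose levels lay within their spread were Fd-GOGAT and AMT, NR and NiR, and NiR and NRT2 in PLBs, and ASN and AMT, and NR and NiR, in leaves.

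**Figure D2:**
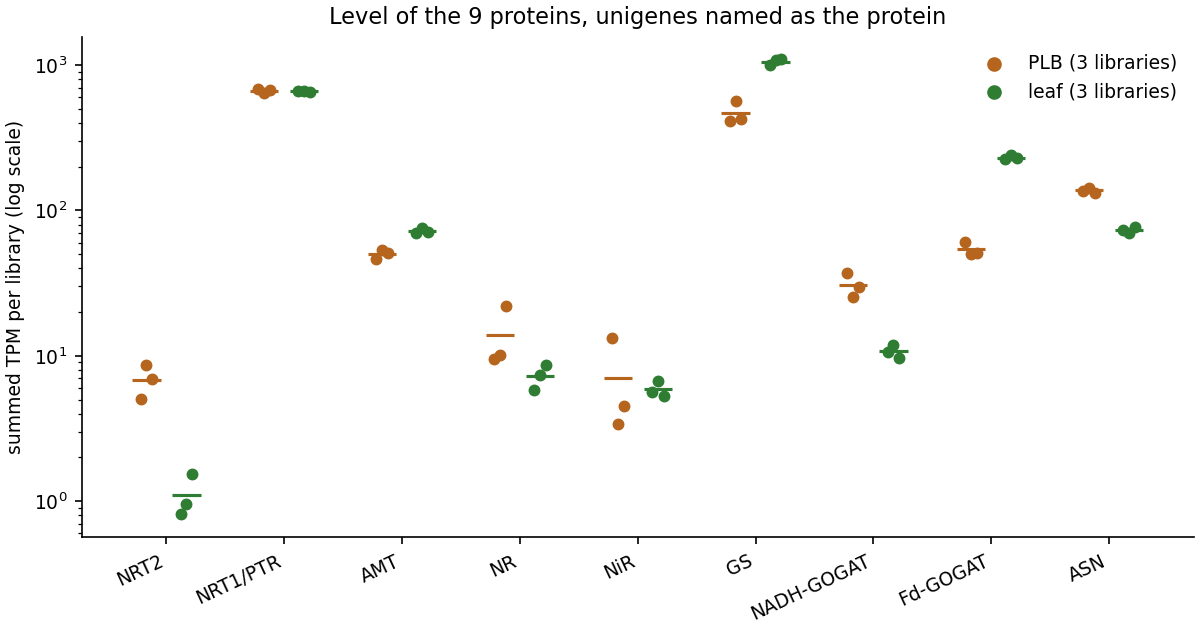
TPM per library summed over the unigenes named as each protein, on a log scale, with PLB libraries left of leaf libraries and bars at the means. The tissues do not overlap for NRT2, AMT, NR, GS, NADH-GOGAT, Fd-GOGAT and ASN. The share of all sums without overlap was not counted, so this describes these proteins only. The tissues overlap for NRT1/PTR and for NiR, where PLB replicate 1 stands at 13.3 TPM.

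The transporters come first in the pathway. NRT2 proteins carry nitrate at low external concentrations, and their 3 unigenes were sparse. They held 47, 86 and 66 counts in PLBs against 9, 11 and 17 counts in leaves, so the tissues did not overlap. The sum rose (above), but 0 of the 3 unigenes were called by edgeR or DESeq2 (2 had an unadjusted edgeR p under 0.05) under the stricter rule for single unigenes, which asked for an adjusted p no greater than 0.001 together with a log2 fold change no smaller than 1 in size. CL11082.Contig1_All, the highest in PLBs, had 20, 38 and 42 counts against 0, 5 and 4 in leaves (log2 fold change 3.13 ± 0.80, edgeR adjusted p = 0.0087). CL11082.Contig2_All, the highest in leaves, had 16, 30 and 12 counts in PLBs against 7, 4 and 10 in leaves (1.15 ± 0.54, adjusted p = 0.090). NRT2 transporters need the partner protein NAR2, which the ortholog rule did not include. Its unigene CL11514.Contig2_All rose to 91, 187 and 142 counts in PLBs, against 11, 22 and 11 in leaves (2.95 ± 0.44, adjusted p = 0.00060), and CL11514.Contig1_All had 16, 31 and 36 counts in PLBs against 45, 45 and 41 in leaves (-0.95 ± 0.40, adjusted p = 0.063).

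The 5 ammonium transporters of the AMT1 group fell by 0.91 ± 0.087 as a sum (edgeR adjusted p = 3.7e-05), and the only one of AMT3 had 2 counts over all libraries. AMT1 split into 2 assembly clusters (contigs grouped as variants of one sequence) that lay on opposite sides of 0. Cluster CL6976 held 267, 274 and 202 counts in PLBs against 1260, 1416 and 1215 counts in leaves, and fell by 2.72 ± 0.16 (edgeR adjusted p = 2.9e-06). Cluster CL8126 held 706, 911 and 856 counts in PLBs against 432, 394 and 425 counts in leaves, a log2 fold change of 0.65 ± 0.15 (adjusted p = 0.0043) that passed neither part of the rule for clusters, which is that for single unigenes. CL8126 took 76.9% of the named AMT counts in PLBs and 24.3% in leaves. Within it CL8126.Contig3_All rose by 4.00 ± 0.33 (adjusted p = 4.2e-05), with 199, 292 and 267 counts in PLBs against 11, 10 and 17 in leaves, while CL8126.Contig1_All had 255, 344 and 296 counts against 326, 312 and 326 in leaves. The AMT member with the highest TPM in PLBs, CL13907.Contig1_All, is described as a G-protein gamma subunit and had 168, 218 and 129 counts in PLBs against 169, 116 and 139 in leaves.

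The 113 named NRT1/PTR unigenes belonged to 7 subfamilies, NPF2 to NPF8, whose plant members carry nitrate, peptides, hormones or other small molecules. Of the 93 that could be tested, 15 rose and 25 fell, a share of 43.0% beside 39.7% of all 70383 unigenes tested (16.8% higher and 22.9% lower). Their median log2 fold change was -0.12, beside 0.00078 for all unigenes. Summed, NPF5 rose by 0.26 ± 0.085 (edgeR adjusted p = 0.023) and NPF7 by 0.52 ± 0.085 (0.00074). NPF4 fell by 1.11 ± 0.23 (0.0027), NPF6 by 0.91 ± 0.20 (0.0034), NPF3 by 0.69 ± 0.076 (8.0e-05), NPF8 by 0.67 ± 0.074 (8.0e-05) and NPF2 by 0.55 ± 0.089 (0.00065), in a fit where 75.8% of all sums were called (37.2% higher and 38.7% lower). The NPF2 direction flips on the TPM scale, where PLBs averaged 61.6 ± 2.15 TPM and leaves 56.8 ± 0.18 TPM (SD, n = 3 each), and NPF5 lost its call without any 1 of the 3 leaf libraries (log2 fold change 0.24 to 0.28). NPF8 lost its call in limma on log2 TPM with a pseudocount of 0.1 (-0.096, adjusted p = 0.25), and in TPM its tissues overlapped (101.7 ± 3.44 TPM in PLBs and 108.7 ± 5.32 TPM in leaves).

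Small sums hid large, opposite changes of single transporters. In NPF3, whose Arabidopsis member carries nitrite and gibberellin, CL4989.Contig3_All held 111, 34 and 78 counts in PLBs against 3264, 3232 and 2986 counts in leaves and fell by 5.72 ± 0.38 (edgeR adjusted p = 1.8e-05). The 7 contigs of its cluster, 3 of them members, fell by 2.26 ± 0.24 (5.9e-05), with 1629, 1594 and 881 counts in PLBs against 5287, 5401 and 4901 in leaves. Unigene13395_All of the same subfamily had 753, 793 and 1118 counts in PLBs against 64, 68 and 52 in leaves and rose by 3.55 ± 0.22 (1.4e-05). Unigene14278_All, also of NPF3, had 1223, 1561 and 1895 counts in PLBs against 199, 250 and 216 in leaves (2.51 ± 0.21, adjusted p = 4.4e-05). Each of these 3 was far apart between the tissues, in 2 directions within 1 subfamily.

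The same held in NPF5 and NPF8. Unigene18221_All of NPF5 had 665, 472 and 573 counts in PLBs and 0 in every leaf library, at least 461-fold higher in PLBs against a floor of 3 counts over the 3 leaf libraries (the floor covers counting error only). Its neighbour in the numbering, Unigene18222_All, had 1292, 1872 and 2205 counts in PLBs against 39, 33 and 40 in leaves (5.28 ± 0.27, edgeR adjusted p = 7.3e-06). In NPF8, CL8754.Contig1_All had 326, 237 and 286 counts in PLBs and 0 in every leaf library, while CL13481.Contig2_All had 132, 166 and 144 counts in PLBs against 2116, 1880 and 1975 in leaves and fell by 4.06 ± 0.16 (4.1e-06). CL8754.Contig1_All and Unigene18221_All were the members with the largest rises. Only the first of them shared an assembly cluster, whose other 6 contigs were not members and which as a whole rose by 1.65 ± 0.13 (edgeR adjusted p = 1.4e-05).

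**Figure D3:**
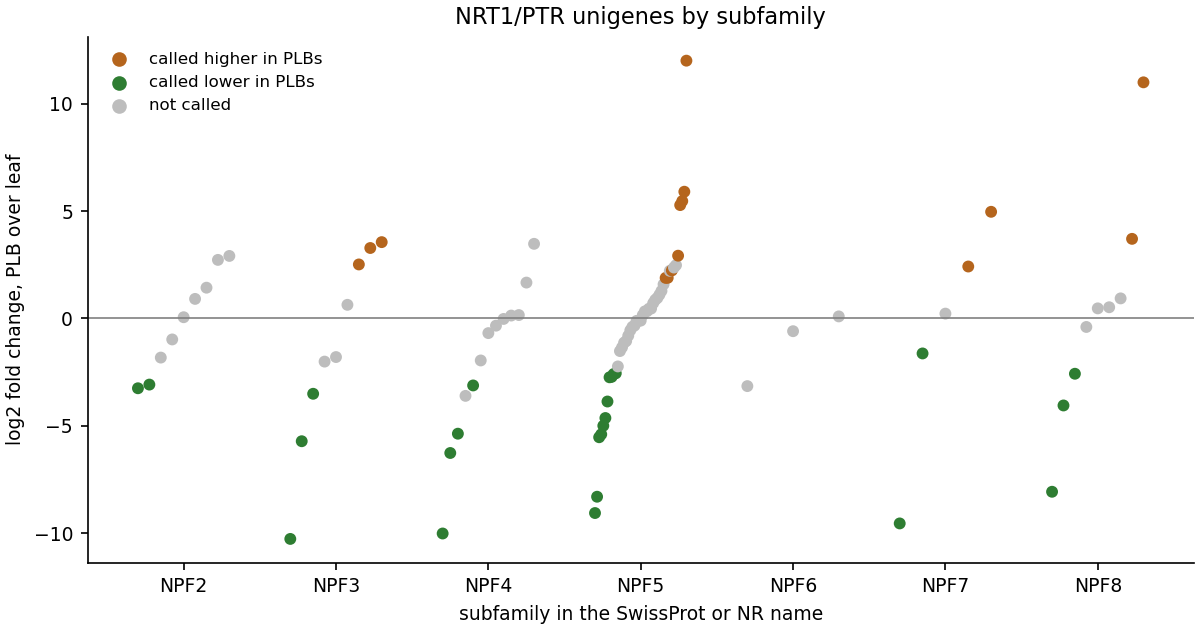
Log2 fold change of PLB over leaf for each of the named NRT1/PTR unigenes that could be tested, by subfamily and sorted within it. Coloured points passed the rule for single unigenes (15 higher and 25 lower). NPF3, NPF5, NPF7 and NPF8 hold called unigenes on both sides of 0, and points beyond 8 in size rest on a tissue with counts at or near 0.

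Among the unigenes that carry another name, the one with the highest TPM of the NRT1/PTR ortholog in PLBs was CL3448.Contig1_All, with 14937, 13348 and 16427 counts in PLBs against 1719, 1818 and 1648 in leaves (2.80 ± 0.14, edgeR adjusted p = 6.4e-06). The highest in leaves was the uncharacterized CL5190.Contig1_All, with 531, 567 and 425 counts in PLBs against 2251, 2193 and 2272 in leaves (fell by 2.44 ± 0.16, adjusted p = 1.5e-05). Neither description names a transporter.

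Nitrate reductase, the first and often limiting step of assimilation, was represented by the 5 contigs of cluster CL9877. They summed to 275, 285 and 604 counts in PLBs against 162, 202 and 215 counts in leaves, and PLB replicate 3 had more than the others. The tissues did not overlap, but the change did not pass the test (0.78 ± 0.33, edgeR adjusted p = 0.059) and the log2 fold change was 0.29 without PLB replicate 3. It passed with DESeq2 (0.80, adjusted p = 0.015), by library size alone (1.04, 0.020), without PLB replicate 1 (0.99, 0.031) and without PLB replicate 2 (0.98, 0.041). CL9877.Contig3_All alone rose, with 154, 151 and 315 counts in PLBs against 13, 29 and 21 in leaves (2.99 ± 0.44, adjusted p = 0.00058). Of the 10 cytochrome b5 unigenes, 4 fell and the other 6 were not called. That is 40% called, all lower, beside 39.7% of all unigenes called in either direction and 22.9% called lower. Unigene36248_All, with the highest TPM of the ortholog in both tissues, had 1352, 1782 and 1306 counts in PLBs against 1341, 1273 and 1212 in leaves.

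Nitrite reductase, a ferredoxin enzyme of plastids, was low in both tissues. The 6 named contigs of cluster CL3830 summed to 271, 75 and 95 counts in PLBs against 123, 143 and 115 counts in leaves (log2 fold change -0.021 ± 0.44, edgeR adjusted p = 0.97). PLB replicate 1 lay above every leaf library and the other PLB libraries below them, and 173 of its counts were on CL3830.Contig6_All. Without PLB replicate 1 the sum fell by 0.79 (adjusted p = 0.0077), and without PLB replicate 2 or 3 it was not called, at 0.30 and 0.20. CL3830.Contig5_All fell, with 0 counts in each PLB library against 41, 17 and 35 in leaves, at least 38.3-fold higher in leaves over the same floor. The uncharacterized CL10599.Contig1_All, which sets the ortholog sum, had 180, 155 and 143 counts in PLBs against 922, 985 and 958 in leaves (fell by 2.89 ± 0.14, adjusted p = 6.8e-06).

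Glutamine synthetase, the highest of the 9 in leaves by named unigenes, was divided among its assembly clusters in other shares in PLBs than in leaves. The named unigenes summed to 415, 564 and 424 TPM in PLBs against 998, 1083 and 1093 TPM in leaves, and fell by 1.79 ± 0.14 (edgeR adjusted p = 1.2e-05). Cluster CL15070, 8 contigs most of which SwissProt names the nodule isozyme, fell by 3.24 ± 0.18 (2.2e-06), with 1986, 2435 and 1909 counts in PLBs against 14849, 16551 and 16011 in leaves. Cluster CL388, 8 contigs named as cytosolic or nodule isozymes, rose by 8.16 ± 0.36 (9.9e-07), with 1508, 2533 and 2161 counts in PLBs against 8, 3 and 6 in leaves. CL388 made up 25.6%, 30.7% and 36.8% of the named GS counts in the PLB libraries and no more than 0.043% in any leaf library, and CL15070 made up 31.6% over PLBs and 80.7% over leaves.

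The third large GS transcript, Unigene43069_All, was shared by both tissues, with 2362, 3161 and 1771 counts in PLBs against 3810, 3737 and 3765 in leaves (-0.93 ± 0.22, edgeR adjusted p = 0.0059, and -1.27 with a call without PLB replicate 2). It had the highest TPM of GS in PLBs (167 ± 41.9 TPM, against 226 ± 4.93 TPM in leaves, SD, n = 3 each). Within CL15070 the loss was uneven. CL15070.Contig4_All had 3, 0 and 2 counts in PLBs against 3631, 4020 and 4069 in leaves (fell by 11.4 ± 0.39, adjusted p = 2.9e-06), whereas CL15070.Contig6_All, the highest in leaves, had 1907, 2316 and 1809 counts in PLBs against 3888, 4450 and 4353 in leaves (fell by 1.38 ± 0.16, 0.00019, a call lost without PLB replicate 1 or any 1 of the leaf libraries, with log2 fold changes of -1.49 to -1.31, and in limma on log2 TPM with a pseudocount of 0.1, at -0.87). RSEM divides reads that match several contigs, so contigs of 1 cluster are not independent measurements.

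Of the 19 GS unigenes tested, 8 rose and 10 fell, beside 39.7% called over all unigenes. CL388.Contig5_All, one of the 3 members with the largest rise, had 159, 213 and 160 counts in PLBs and 0 in every leaf library, at least 144-fold higher in PLBs. The fluG-like CL74.Contig5_All, one of the 3 with the largest fall, had 0 counts in PLBs against 550, 602 and 385 in leaves, while CL74.Contig3_All of the same cluster had 4313, 3735 and 3885 counts in PLBs against no more than 307 in any leaf library (3.51 ± 0.14, edgeR adjusted p = 4.3e-06). As a sum the 5 fluG-like unigenes rose by 1.73 ± 0.092 (edgeR adjusted p = 1.9e-06), whereas the named GS unigenes fell. No GS unigene was annotated as chloroplastic in SwissProt or NR, so a ratio of plastid to cytosolic GS could not be given.

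**Figure D4:**
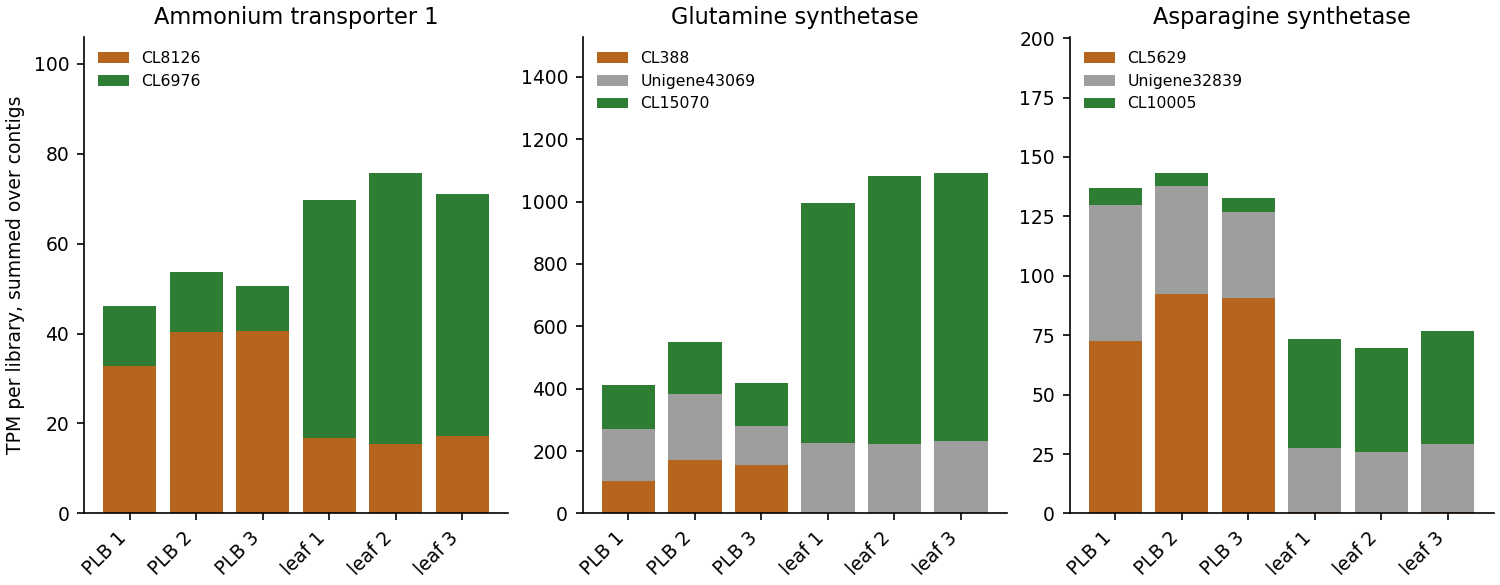
TPM per library of the assembly clusters of ammonium transporter, glutamine synthetase and asparagine synthetase, stacked from 0, with the 3 PLB libraries left of the 3 leaf libraries. CL388 and CL5629 are visible in PLBs only (143 and 85.1 TPM on average in PLBs, against 0.32 and 0.46 TPM in leaves), and CL6976, CL15070 and CL10005 make up most of the leaf bars.

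The 2 glutamate synthases, which use different electron donors, changed in opposite directions. Fd-GOGAT, the ferredoxin enzyme of chloroplasts, had 60.4, 50.0 and 51.2 TPM in PLBs against 226, 239 and 229 TPM in leaves over its 4 named contigs, all of 1 cluster, and fell by 2.03 ± 0.10 (edgeR adjusted p = 1.7e-06). NADH-GOGAT, 19 contigs of 1 cluster, had 37.0, 25.3 and 29.6 TPM in PLBs against 10.7, 11.95 and 9.64 TPM in leaves and rose by 1.16 ± 0.14 (0.00013). Neither overlapped between the tissues. In PLBs Fd-GOGAT was 2.02 times as high as NADH-GOGAT in summed TPM over all unigenes of the orthologs, and in leaves 22.1 times. The log2 ratio was 1.01 ± 0.053 in PLBs and 4.47 ± 0.12 in leaves (SD, n = 3 each; exact two-sided permutation p = 0.1, the smallest that 3 against 3 libraries allow).

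All 4 named Fd-GOGAT contigs, which are of 1 cluster and share reads, fell, beside 22.9% of all unigenes called lower. The longest, CL304.Contig1_All, was the highest in both tissues, with 3353, 2739 and 2504 counts in PLBs against 7828, 7834 and 7486 in leaves (fell by 1.74 ± 0.14, edgeR adjusted p = 3.9e-05), and CL304.Contig4_All fell further, with 34, 85 and 116 counts in PLBs against 2053, 2384 and 2093 in leaves. The other 11 unigenes of this ortholog held 3.11% of its counts in PLBs and 0.601% in leaves. Of NADH-GOGAT, CL1835.Contig11_All had 742, 708 and 677 counts in PLBs against 120, 174 and 96 in leaves (2.15 ± 0.22, adjusted p = 0.00011), a call lost without leaf replicate 1 (2.04, 0.0013). CL1835.Contig10_All, the highest in leaves, had 801, 669 and 633 counts in PLBs against 453, 365 and 275 in leaves (0.64 ± 0.19, adjusted p = 0.017). Light-harvesting and Rubisco transcripts fell with Fd-GOGAT (all 11 light-harvesting orthologs present were lower in PLBs, with log2 fold changes of -7.05 to -1.83), and their part in its change was not tested.

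Asparagine synthetase was likewise divided in other shares between its clusters. Cluster CL5629 rose by 7.16 ± 0.22 (edgeR adjusted p = 3.4e-07), with 1533, 1977 and 1758 counts in PLBs against 11, 8 and 10 in leaves. Cluster CL10005 fell by 3.37 ± 0.14 (7.5e-07), with 148, 117 and 114 counts in PLBs against 1041, 992 and 1053 in leaves. Unigene32839_All was present in both, with 1409, 1180 and 874 counts in PLBs against 782, 743 and 802 in leaves (0.27 ± 0.18, adjusted p = 0.22). CL5629 made up 57.8% of the named ASN counts in PLBs and 0.533% in leaves, and CL10005 4.15% in PLBs and 56.7% in leaves.

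In CL5629 every contig had more counts in PLBs, and in CL10005 every contig had more in leaves. CL5629.Contig3_All, the highest ASN unigene in PLBs, had 1123, 1243 and 805 counts in PLBs against 0, 6 and 0 in leaves (8.67 ± 0.65, edgeR adjusted p = 2.8e-05). CL10005.Contig2_All, one of the 3 members with the largest fall, had 0 counts in each PLB library against 641, 595 and 718 in leaves, at least 805-fold higher in leaves. The member with the largest fall of all was the TSJT1-like CL2234.Contig8_All, with 0 counts in each PLB library against 15501, 14048 and 16536 in leaves. Its cluster, CL2234, was abundant in both tissues, with 13781, 14924 and 11605 counts over its 8 contigs in PLBs against 23319, 21675 and 23932 in leaves (fell by 1.11 ± 0.17, adjusted p = 0.00042), and only 3 of those contigs were members. The other TSJT1-like cluster, CL7874, had 40.4 ± 12.6 TPM in PLBs and 51.1 ± 3.86 TPM in leaves (SD, n = 3 each), which overlapped, and a log2 fold change of -0.89 ± 0.23 (edgeR adjusted p = 0.0080) that was not called. TSJT1 proteins hold a glutamine amidotransferase-like domain, and SwissProt names this unigene asparagine synthetase where NR does not.

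Over all members, 202 of the 277 unigenes passed the filter on low counts. Of these 38 rose and 61 fell, 49.0% beside 39.7% over all unigenes, with a median log2 fold change of -0.10 beside 0.00078, and 20 to 27 rose and 34 to 54 fell when each library was left out. Counts were 0 in all PLB libraries only for 35 members, in all leaf libraries only for 29 and in all 6 libraries for 9. The shares over all unigenes were not counted, so these numbers describe the members only. Summed over the 138 clusters and single unigenes, 109 could be tested, of which 24 rose and 29 fell (48.6%, beside 40.3% of all clusters, 17.4% higher and 22.9% lower). A unigene filter of this kind passes members that are high in only 1 tissue, so these shares describe the members and support nothing further.

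The rest of nitrogen metabolism gave 23 orthologs, of which 6 rose, 13 fell and 4 did not pass the test, 82.6% called beside 75.8% of all orthologs. The largest falls were those of genes active in chloroplasts and in photorespiration. Ferredoxin NADP reductase (FNR) had 79.4 ± 20.0 TPM in PLBs against 876 ± 56.3 TPM in leaves (fell by 3.97 ± 0.19, edgeR adjusted p = 1.3e-06), and ferredoxin (Fd) had 741 ± 116 TPM in PLBs against 3712 ± 95.4 TPM in leaves (fell by 2.73 ± 0.12, 7.5e-07). Chloroplastic aspartate aminotransferase fell by 3.82 ± 0.12 (2.9e-07) and GGAT, the glutamate:glyoxylate aminotransferase of photorespiration, by 3.20 ± 0.16 (1.5e-06). The mitochondrial aspartate aminotransferase rose by 0.52 ± 0.12 (0.0051), a call lost on its unigene with the most counts (0.13, adjusted p = 0.41).

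Asparaginase (ASPG), which releases ammonium from asparagine, had 18.7 ± 10.9 TPM in PLBs against 81.8 ± 7.54 TPM in leaves and fell by 2.54 ± 0.43 (edgeR adjusted p = 0.00084). Arginase fell by 0.86 (6.8e-05). The urea transporter DUR3 fell by 0.65 (0.0014), a call lost in limma on log2 TPM with a pseudocount of 0.1 or 1 (-0.21 and -0.19, adjusted p = 0.20 in both). The accessory proteins of urease split, UreG having fallen by 2.01 ± 0.13 (4.8e-06) and UreD having risen by 1.35 ± 0.13 (3.3e-05). UPM, which starts the synthesis of the sirohaem cofactor of nitrite reductase, rose by 1.42 ± 0.086 (3.3e-06), and CNX2, an early step of the molybdenum cofactor of nitrate reductase, by 1.31 ± 0.26 (0.0023), although its unigene with the most counts lay at -1.02 (adjusted p = 0.069). NADP-dependent isocitrate dehydrogenase (ICDH), a source of 2-oxoglutarate, rose by 0.34 ± 0.087 (0.0078), with its unigene of most counts at -0.17 (adjusted p = 0.23). Glutamate dehydrogenase GDH-NAD(P) fell by 0.47 ± 0.12 (0.0086), a call lost when counts were scaled by library size alone (-0.23, adjusted p = 0.12) and turned round on the unigene with the most counts, which rose by 1.84 (0.00081). Urease fell by 0.29 and cytoplasmic aspartate aminotransferase by 0.24, but both directions flip in limma on log2 TPM (pseudocount 0.1), with log2 fold changes of 0.17 and 0.20. Of 7 unigenes named as NIN-like proteins, transcription factors of the nitrate response, 1 rose, 1 fell and 5 were not called. That is 28.6% called, beside 39.7% of all unigenes. CL911.Contig3_All rose (756, 678 and 778 counts in PLBs against 139, 69 and 137 in leaves, 2.37 ± 0.28, adjusted p = 0.00021) and CL911.Contig2_All fell (146, 157 and 163 counts in PLBs against 368, 320 and 346 in leaves, -1.45 ± 0.16, adjusted p = 0.00015). Both are contigs of 1 cluster, so they are not independent.

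**Figure D5:**
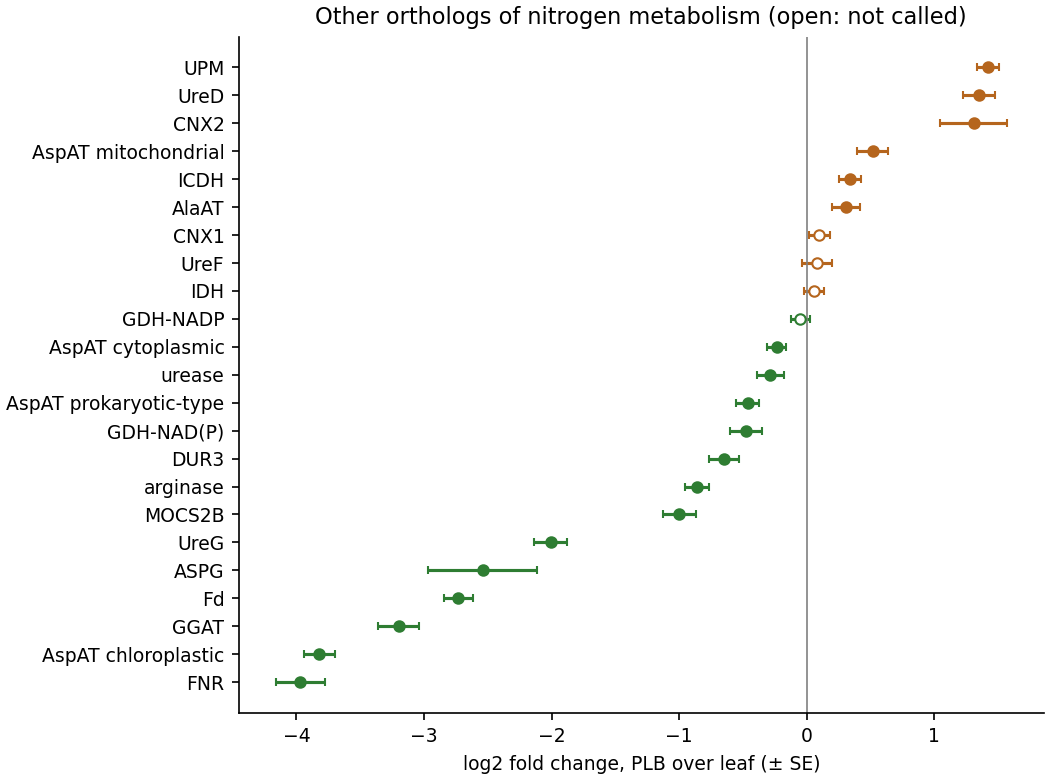
Log2 fold change of PLB over leaf (± SE, edgeR) of the 23 other orthologs of nitrogen metabolism, sorted. Open points did not pass an adjusted p under 0.05. Names are those of the ortholog, and the names of the unigenes were not checked. FNR (-3.97), chloroplastic aspartate aminotransferase (-3.82) and GGAT (-3.20) lie lowest, and UPM (1.42) highest.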

How the data were processed

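Total RNA of PLBs and leaves was extracted, and mRNA purified from it with oligo(dT) beads was sequenced in 3 libraries per tissue. The submitters' processing notes name Bowtie2 2.2.5, RSEM 1.2.8 and DESeq2, and the paper names Trinity and Tgicl for the assembly, whereas its methods name BLAST for mapping. No genome build applies. Expected counts, TPM and FPKM per unigene were deposited by the authors for each library, and a table of the series joins FPKM with annotation and with the authors' own fold changes and p-values, which were not used. Reads that match several contigs are divided among them, so contigs of 1 cluster share reads.

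Expected counts were rounded and tested by edgeR 4.0.16 (R 4.3.3) with filterByExpr, TMM factors (0.892 to 1.14) and the quasi-likelihood F test, PLB over leaf, with no covariate and Benjamini-Hochberg adjustment over all rows of each table. A call on unigenes and clusters needed adjusted p values no greater than 0.001 with a size no smaller than 1 on the log2 scale, and one on sums over orthologs, isoform groups or protein names an adjusted p under 0.05. SE was taken as the fold change over root F. Cluster sums include all contigs of a cluster. Biological coefficients of variation were 0.337 (unigenes) and 0.124 (orthologs). Ratios used summed TPM and an exact permutation test. Against a tissue at 0, its libraries together were set to 3 counts. The tests were also run on simulated counts with few changed rows, as many rises as falls and a fixed dispersion. That setting differs from these data and cannot check their scaling.

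Alternatives were DESeq2 1.42.0, RLE factors, library size only, no filter, other sums, limma 3.58.1 on log2 TPM with a pseudocount of 0.1 or 1, and leaving out each library. Sums by protein name and their alternatives were added after the annotation had been seen. Named are all 9 orthologs, per ortholog the unigene with the highest mean TPM in each tissue, the 3 called members with the largest rise and the 3 with the largest fall at a mean TPM of at least 1, every isoform group and the wider list. Other contigs were chosen for naming with their values known. Members and lists were chosen with earlier results of these data known. Of the wider list, glutamate dehydrogenase, asparaginase, urea, cofactor and PII orthologs that no unigene carried first were not analysed here.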

Additional observations from a re-analysis of the deposited data

How the results depend on the processing

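No paired analysis was possible because the labels number the libraries A10 to A15 and share no replicate number between the tissues, and the replicate numbers used here only follow that order. Of the sums by ortholog and by protein name, NRT2, AMT, GS, NADH-GOGAT and Fd-GOGAT kept their direction and their call under every alternative run. With library size as the sole scaling, the median over all unigenes lay at 0.32 and over all orthologs at 0.26 on the log2 scale, so changes smaller than that depend on the scaling, and the cause of a changed call was not tested unless fewer libraries or unigenes entered.

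Values are log2 fold changes of PLB over leaf. The NRT1/PTR ortholog sum lost its call with the TMM factors of the unigene fit (0.18), turned round over named unigenes (-0.38) and lay at 0.23 to 0.30 when each library was left out. The NR sum lost its call on its top unigene (-0.021) and turned round over named ones (0.78), ASN turned round over named ones (0.51) and NiR lost its call there (-0.021). Over named unigenes, NRT1/PTR lost its call by library size alone (-0.13), NR passed with DESeq2 (0.80) and by library size (1.04) and ranged from 0.29 to 0.99 without single libraries, and NiR turned round by library size (0.22; cluster CL3830 0.22) and ranged from -0.79 to 0.30 (CL3830 from -0.87 to 0.11).

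Members called numbered 64 higher and 83 lower at an adjusted p under 0.05 with no minimum fold, and 20 to 27 higher and 34 to 54 lower without single libraries. Clusters called numbered 16 to 21 higher and 22 to 28 lower without single libraries. Of the NPF subfamilies, 1 to 2 were called higher without single libraries and 3 lower in limma on log2 TPM (pseudocount 0.1), where NPF2 turned to 0.12. In the wider list 10 orthologs were called higher by library size and 11 in limma on log2 TPM with either pseudocount.

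The log2 ratio of Fd-GOGAT to NADH-GOGAT differed between PLBs and leaves by -3.45, by -2.41 on the top unigene of each and by -3.60 over named unigenes. That of NR to NiR differed by 1.65 over all unigenes of the orthologs. On the top unigenes it differed by 2.79, but these are described as cytochrome b5 and as an uncharacterized protein. Over named unigenes it differed by 0.83 (exact two-sided permutation p = 0.4). The named log2 ratio was 1.13 ± 1.43 in PLBs and 0.30 ± 0.38 in leaves (SD, n = 3 each).

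In the wider list, the unigene with the most counts went against the sum for GDH-NAD(P) (1.84), AlaAT (-3.53), urease (1.38), UreF (-1.001), CNX2 (-1.02), MOCS2B (0.74), CNX1 (-2.42) and ICDH (-0.17). By library size GDH-NADP turned to 0.20 and cytoplasmic AspAT to 0.011. In limma on log2 TPM with pseudocounts of 0.1 and 1, GDH-NADP turned to 0.62 and 0.59, cytoplasmic AspAT to 0.20 and 0.20 and urease to 0.17 and 0.16. IDH turned to -0.011 with the unigene TMM factors and -0.19 with the ortholog anywhere in the list, and without single libraries IDH ranged from -0.013 to 0.098 and UreF from -0.028 to 0.21. The uncalled CL13907.Contig1_All turned to 0.29 by library size and 0.47 and 0.45 on TPM (-0.33 to 0.16 without single libraries, and -0.15 to 0.20 as a group of its own), and Unigene36248_All to 0.22 and to 0.41 and 0.41 (-0.33 to 0.0087).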

Other observations

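One unigene that SwissProt names the nodule isozyme of glutamine synthetase lay outside the ortholog rule. Unigene13205_All, whose NR description is an uncharacterized protein, had K01246 as its first KEGG ortholog. It had 0 counts in each PLB library against 2047, 1657 and 1961 counts in leaves (log2 fold change -14.04 ± 0.36, edgeR adjusted p = 6.3e-06). The size of that fold change rests on a tissue at 0 and is not a measured fold. Whether this unigene is a glutamine synthetase was not tested.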
